A study of Mus musculus with 8 samples.

Results

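The transforming growth factor β (TGF-β), bone morphogenetic protein (BMP) and activin signalling genes were followed in chronic stroke infarcts of aged mice. The set was a list of 39 named genes, comprising ligands, receptors, Smads, secreted antagonists, nuclear corepressors and an induced matrix protein. All 39 were found by symbol among the 46078 gene identifiers counted, and 38 were among the 14736 genes with enough reads to test. The exception was *Inhba*, an activin subunit, at 0.172 to 1.09 CPM, the read count scaled to a library of 1 M reads. RNA was sequenced from infarcts of 8 aged (18-month-old) male C57BL/6J wild-type mice, with 1 library per animal. All had DH stroke, meaning occlusion of the distal middle cerebral artery followed by exposure to low oxygen. From week 1 after the stroke the mice were injected subcutaneously 3 times each week, for 6 weeks, with phosphate-buffered saline (vehicle, n = 4) or with 2-hydroxypropyl-β-cyclodextrin at 4 g/kg (HPβCD, n = 4), a cyclic sugar that takes up lipids. The infarcts were dissected by eye at 7 weeks after stroke, so the amount of adjoining brain in each piece was not fixed.

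Ligands of this family are secreted as dimers and draw type II and type I receptor kinases into a complex. The type I kinase phosphorylates receptor-regulated Smads, which join the common Smad4 and act on genes in the nucleus. TGF-β and activin signal mainly through Smad2 and Smad3, and BMPs mainly through Smad1, Smad5 and Smad9. TGF-β is made in an inactive complex that is stored in the matrix or on cell surfaces until it is released. In injured brain the family is known for its part in scar formation, vessel stability and the state of microglia and astrocytes.

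The promoters of 3 members are shown because these members carry the main contrasts below. *Gdf10* was the member that passed the test across all genes, *Tgfb2* was the TGF-β isoform with the largest fold difference, and *Bmpr1b* was the receptor with the largest. Each window holds the 250 bases before the RefSeq start of the gene on build GRCm38.p6, written 5′ to 3′ on the strand of the gene, at chr14:33923337-33923586 (plus), chr1:186705990-186706239 (minus) and chr3:141982265-141982514 (minus). The start used for *Bmpr1b* lies inside the longer gene of the GENCODE annotation. Capitals mark CAGAC, the core of the element bound by Smad3 and Smad4, or its reverse complement.
Gdf10: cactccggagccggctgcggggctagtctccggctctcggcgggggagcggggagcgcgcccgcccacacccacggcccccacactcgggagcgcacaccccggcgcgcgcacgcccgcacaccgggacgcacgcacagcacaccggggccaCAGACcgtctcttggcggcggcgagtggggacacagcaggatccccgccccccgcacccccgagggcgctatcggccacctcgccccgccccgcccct
Tgfb2: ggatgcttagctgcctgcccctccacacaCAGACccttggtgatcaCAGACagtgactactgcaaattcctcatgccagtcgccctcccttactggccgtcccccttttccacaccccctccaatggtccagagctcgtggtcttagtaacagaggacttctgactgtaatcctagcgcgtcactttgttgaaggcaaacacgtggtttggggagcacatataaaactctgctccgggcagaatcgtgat
Bmpr1b: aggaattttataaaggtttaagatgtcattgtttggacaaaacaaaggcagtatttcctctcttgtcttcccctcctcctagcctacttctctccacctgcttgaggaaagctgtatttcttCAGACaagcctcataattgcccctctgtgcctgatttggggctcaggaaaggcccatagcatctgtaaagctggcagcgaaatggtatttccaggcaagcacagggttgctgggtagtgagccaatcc
*Gdf10* and *Bmpr1b* held 1 match each and *Tgfb2* held 2. Of the 39 members, 26 had a promoter in the table, and 10 of these windows held CAGAC on either strand, against 42.19% of all 32851 promoter windows of this length. GGCGCC, a palindrome found in GC-rich BMP response elements, was in 8 of the 26 and in 9.59% of all windows. Members were counted with 1 window each, whereas the background held every window. The sets were not matched for base composition. GC content was 46.8% to 85.6% in the 9 windows of members with separate groups, and its median over all windows was 52.4%. It was not computed for the 26 windows as a set, so these values do not describe the base composition behind the shares above. The part of base composition in these shares was not tested. The 2 motifs can share a base at their ends. A match is a description of the letters and not evidence of binding.

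Libraries held between 16.6 M and 32.9 M gene counts. Of the 14736 tested genes, 287 were called by the quasi-likelihood test of edgeR at an adjusted p of 0.05, 173 higher and 114 lower in HPβCD infarcts. Mitochondrial transcripts took 2.94% to 7.15% of counts in vehicle and 2.27% to 2.93% in HPβCD libraries, highest in vehicle animals 3 and 1, and their part in the results was not tested. Vehicle animals 1 and 3 stood apart. The summed level of 8 neuron markers was 1002 CPM and 6508 CPM in these animals and between 8.70 and 86.3 CPM in the other 6. The 7 astrocyte markers summed to 2112 to 9339 CPM in vehicle and 646 to 2534 CPM in HPβCD infarcts, with all 7 fold changes below 0. The 6 fibroblast markers summed to 2348 to 6025 CPM in vehicle and 8657 to 9270 CPM in HPβCD infarcts, and 6 macrophage markers to 5637 to 10680 and 12990 to 19960 CPM. *Gpnmb* alone gave 2947 to 5475 and 8476 to 14610 CPM of the macrophage sums. *Cd68* was also higher with separate groups. *Cd36*, *Lpl*, *Spp1* and *Mrc1* overlapped between groups, with log2 fold changes of 0.54, -0.21, 0.09 and -0.01. Without vehicle animals 1 and 3 these were 0.07, -0.64, -0.34 and -0.40. None of these 4 lists held a gene at 0 in any library. Log2 fold changes of the genes named are therefore given with all 8 animals and again without those 2, called below the 6-animal value. In bulk tissue, fewer cells of a type and less RNA per cell cannot be told apart.

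Most members had higher mean levels in HPβCD than in vehicle infarcts, but few differences were large against the spread between animals. Of the 38 tested members, 27 had a log2 fold change above 0 (71.1%, against 45.9% of all tested genes). The median log2 fold change was 0.29, against -0.05 over all tested genes. Without vehicle animals 1 and 3 these medians were 0.09 and 0.01. By edgeR, with p-values adjusted over all tested genes, 1 member rose (background 1.17% of tested genes) and 0 fell (background 0.774%). At an unadjusted p of 0.05, 12 members were higher and 3 lower, against backgrounds of 11.8% and 16.0%. The 2 groups of animals were fully separate in 9 members that were higher (background 8.77%) and in 3 that were lower (background 8.03%). DESeq2 called 6 members higher and 3 lower (backgrounds 5.92% and 11.1%). limma-voom called 7 higher and 6 lower (backgrounds 10.9% and 11.1%).

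**Figure D1:**
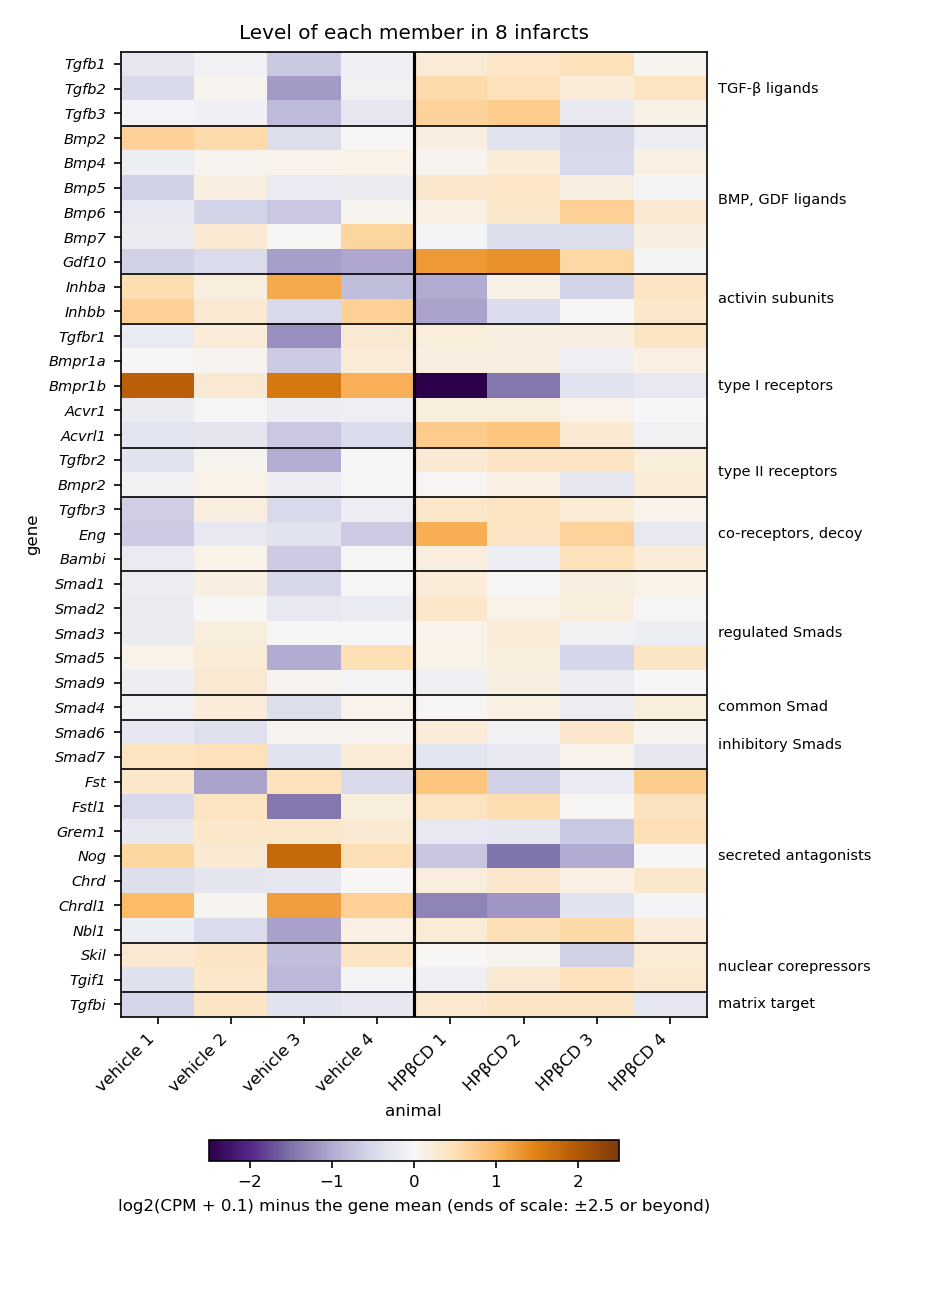
Level of each of the 39 members (rows, grouped by class) in each of the 8 infarcts (columns), as log2(CPM + 0.1) minus the mean of the gene, with orange above and purple below the mean. *Bmpr1b*, *Nog* and *Chrdl1* are orange in vehicle animals 1 and 3 and purple in HPβCD animals 1 and 2, whereas 19 of the 38 tested members have their lowest value in vehicle animal 3.

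The levels of individual animals were not evenly spread. Vehicle animal 3, the animal with the most neuron transcripts, had the lowest value of all 8 animals in 19 of 38 tested members (50.0%), against 27.63% of all tested genes. HPβCD animal 2 had the highest value in 11 members. The part of neuron transcripts in the levels of vehicle animal 3 was not tested.

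Members differed far more from each other than between groups. Per kilobase of exon, mean levels over the 8 animals ran from 0.0791 CPM per kb for *Inhba* to 107 CPM per kb for *Fstl1*, a secreted glycoprotein that binds ligands of the family. The next highest were *Nbl1* (99.3), *Tgfbr1* (86.7), *Tgfbr2* (84.1) and *Tgfbi* (74.1 CPM per kb). The ranges over animals of these 5 genes overlapped, so their order is not fixed by the spread between animals. The TGF-β receptor pair was therefore among the most abundant members per length, while the ligands *Tgfb1*, *Tgfb2* and *Tgfb3* stood at 26.1, 9.78 and 5.60 CPM per kb. *Bmp2*, *Grem1* and *Inhba* were the lowest of their classes.

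**Figure D2:**
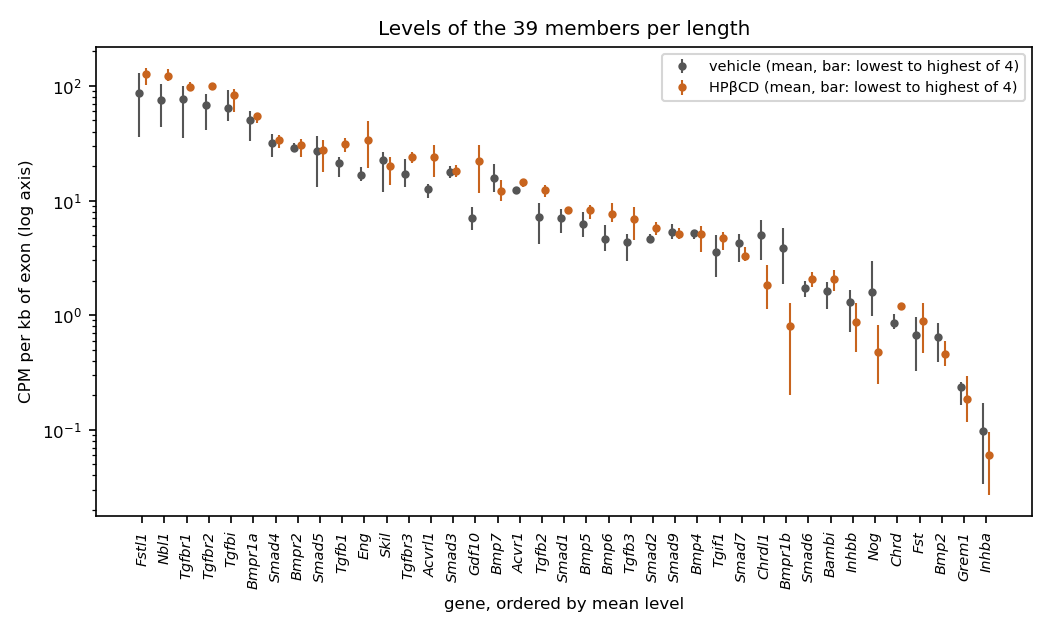
Mean level of the 39 members per kilobase of exon (log axis, CPM per kb) in vehicle (grey) and HPβCD (orange) infarcts, with bars from the lowest to the highest of 4 animals and genes ordered by mean level. *Fstl1* lies at the upper end (107 CPM per kb over all animals) and *Inhba* at the lower end (0.0791), and the grey and orange bars are furthest apart for *Gdf10* and *Bmpr1b*.

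*Gdf10* was the ligand that rose. It encodes a secreted factor of the BMP family that is known from peri-infarct cortex as a signal for axonal sprouting. The gene (ENSMUSG00000021943) lies on the plus strand of chromosome 14, from 33923587 to 33937983 (GRCm38). Vehicle animals 1 to 4 had 42.1, 45.5, 29.1 and 30.5 CPM, and HPβCD animals 1 to 4 had 151, 158, 94.8 and 60.5 CPM. Every HPβCD animal was above every vehicle animal, and the spread was wider in the HPβCD group, where animal 4 was the lowest. The means were 36.8 ± 8.24 and 116 ± 46.7 CPM (SD, n = 4 each). This amounted to a log2 fold change of 1.66 ± 0.31, where ± stands for the SE of a log2 fold change here and below (edgeR adjusted p = 0.0483). The fold change was 1.62 without vehicle animals 1 and 3 and ran from 1.48 to 1.88 when single animals were left out. The call lay close to the threshold. It was lost without vehicle animal 1, 3 or 4 or HPβCD animal 1, 2 or 3, with edgeR adjusted p-values up to 0.175, and was kept without vehicle animal 2 or HPβCD animal 4.

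The 3 TGF-β isoforms, the name-giving ligands, were each higher in HPβCD infarcts at an unadjusted p of 0.05, and none passed the adjusted threshold by edgeR. *Tgfb1* (chromosome 7, 25687002 to 25705077, plus strand) was at 106, 121, 80.3 and 119 CPM in vehicle animals 1 to 4 and at 152, 165, 177 and 134 CPM in HPβCD animals 1 to 4. *Tgfb2* (chromosome 1, 186622792 to 186705989, minus strand) stood at 38.4, 55.1, 24.0 and 50.1 CPM in vehicle animals and at 78.7, 73.7, 62.4 and 70.7 CPM in HPβCD animals. In both genes the groups did not overlap, and vehicle animal 3 was the lowest of the 8. The log2 fold change of *Tgfb1* was 0.56 ± 0.16 (edgeR adjusted p = 0.0848; DESeq2 adjusted p = 0.0302). That of *Tgfb2* was 0.77 ± 0.24 (edgeR adjusted p = 0.0940; DESeq2 adjusted p = 0.0397). Without vehicle animals 1 and 3 they were 0.40 and 0.45. The study itself named these 2 genes on the same samples, so their direction here is not independent evidence. *Tgfb3* had a log2 fold change of 0.66 ± 0.26 (edgeR adjusted p = 0.143) and a 6-animal value of 0.57, and HPβCD animal 3, at 15.2 CPM, lay within the vehicle range of 10.1 to 17.1 CPM. Of its exon length, 12.4% overlaps a gene on the other strand.

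The share of each isoform overlapped between groups. Per kilobase, *Tgfb1* made up 65.0% ± 2.88 of the summed isoforms in vehicle and 61.9% ± 5.31 in HPβCD infarcts (SD, n = 4 each). *Tgfb2* made up 21.7% ± 3.11 and 24.6% ± 2.70, and *Tgfb3* made up 13.3% ± 1.53 and 13.6% ± 3.42.

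Among the BMP ligands, directions were mixed. *Bmp6*, known in liver as an iron-regulated ligand made by endothelium, stood at 19.2, 15.4, 14.0 and 23.8 CPM in vehicle animals and at 25.2, 28.9, 37.0 and 27.5 CPM in HPβCD animals, without overlap. Its log2 fold change was 0.71 ± 0.21 (edgeR adjusted p = 0.0819; DESeq2 adjusted p = 0.0217), with a 6-animal value of 0.62. *Bmp5* had a value of 0.39 (6 animals 0.22), and 46.7% of its exon length overlaps a gene on the opposite strand, so its count is uncertain. *Bmp2*, *Bmp4* and *Bmp7* had log2 fold changes of -0.49, -0.03 and -0.37 (6 animals -0.53, -0.06 and -0.61), each with overlapping groups, and the sign for *Bmp4* was positive by limma-voom and without a filter on low counts. The activin subunit *Inhbb* stood at 6.96, 5.22, 3.03 and 6.99 CPM in vehicle animals and at 2.01, 3.12, 4.29 and 5.44 CPM in HPβCD animals, which overlapped (log2 fold change -0.58 ± 0.37; 6 animals -0.69). *Inhba* was at or under 18 counts in every library.

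Of the 10 receptors, 9 had a log2 fold change above 0 and 1 below, against 45.95% of all tested genes above 0. Their median was 0.35 (6 animals 0.18). Within the type I class 4 were above 0 and 1 was below. *Acvrl1*, a type I receptor of endothelium for circulating BMPs (chromosome 15, 101128522 to 101145336, plus strand), stood at 58.3, 59.2, 45.3 and 53.4 CPM in vehicle animals and at 122, 130.1, 88.0 and 68.3 CPM in HPβCD animals. The groups did not overlap, and HPβCD animal 4 was closest to vehicle. The log2 fold change was 0.92 ± 0.21 (edgeR adjusted p = 0.0616; DESeq2 adjusted p = 0.00345) and 0.87 without vehicle animals 1 and 3. *Eng*, a co-receptor that works with *Acvrl1* on endothelium (chromosome 2, 32646595 to 32682669, plus strand), stood at 59.4, 79.3, 74.0 and 59.6 CPM in vehicle animals and at 198, 122, 147 and 78.7 CPM in HPβCD animals. HPβCD animal 4 lay just under vehicle animal 2, so the groups overlapped by that value. The log2 fold change of *Eng* was 1.00 ± 0.26 (edgeR adjusted p = 0.0701; DESeq2 adjusted p = 0.00737), and it was 0.99 without vehicle animals 1 and 3. Without HPβCD animal 4, both genes passed by edgeR, with adjusted p-values of 0.0360 and 0.0368.

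Endothelial markers stood beside these receptors as follows. The 6 markers summed to 430 to 505 CPM in vehicle animals and to 805, 697, 578 and 470 CPM in HPβCD animals 1 to 4. All 6 had fold changes above 0, 0 of the 6 were called by edgeR, none had separate groups, and none was at 0 in any library. HPβCD animal 4 was the lowest of its group for *Gdf10*, *Acvrl1*, *Eng* and the summed endothelial markers. This rank was not particular to endothelium. The same animal was also the lowest of its group for the summed macrophage (12990 CPM) and T lymphocyte markers (66.7 CPM). It was not the lowest for the summed fibroblast markers (8683 CPM, against 8657 CPM in HPβCD animal 1). The part of endothelial cells in the receptor levels was not tested.

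*Bmpr1b* was the receptor with lower levels in HPβCD infarcts. It encodes a type I receptor for BMP and GDF ligands (ENSMUSG00000052430, chromosome 3, 141837136 to 142169425, minus strand). It stood at 34.1, 11.1, 27.9 and 19.0 CPM in vehicle animals and at 1.21, 3.25, 7.19 and 7.61 CPM in HPβCD animals. The groups did not overlap, and the highest vehicle values were those of animals 1 and 3. The log2 fold change was -2.25 ± 0.59 (edgeR adjusted p = 0.0724; DESeq2 adjusted p = 0.00125) and -1.62 without vehicle animals 1 and 3. Its level was far under that of *Bmpr1a*, the other BMP type I receptor, which was at 52.6 CPM per kb against 2.34 CPM per kb and whose groups overlapped (log2 fold change 0.14 ± 0.20; 6 animals -0.05).

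The remaining receptors showed smaller differences. *Tgfbr2*, the type II receptor that binds TGF-β, stood at 526, 699, 339.9 and 661 CPM in vehicle animals and at 801, 861, 858 and 762 CPM in HPβCD animals, without overlap. The log2 fold change was 0.56 ± 0.23 (edgeR adjusted p = 0.153) and 0.29 without vehicle animals 1 and 3. Its partner *Tgfbr1* was at 472, 636, 229 and 657 CPM in vehicle and at 624, 608, 603 and 705 CPM in HPβCD animals. Vehicle animals 1 and 3 lay below every HPβCD animal, vehicle animals 2 and 4 lay within the HPβCD range, and the log2 fold change went from 0.35 ± 0.30 to -0.01 without vehicle animals 1 and 3. *Acvr1*, a type I receptor for BMPs and activins, was at 56.7, 63.5, 58.5 and 58.8 CPM in vehicle and at 74.1, 74.8, 68.2 and 64.0 CPM in HPβCD animals. Its groups were separate by a narrow gap, with a log2 fold change of 0.24 ± 0.11 (edgeR adjusted p = 0.197; 6 animals 0.21). *Bmpr2* (0.06, 6 animals -0.01), the co-receptor *Tgfbr3* (0.50, 6 animals 0.26), which presents TGF-β2 to its receptor, and the pseudoreceptor *Bambi* (0.34, 6 animals 0.14) had overlapping groups, and the sign for *Bmpr2* turned when libraries were scaled by their totals alone.

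**Figure D3:**
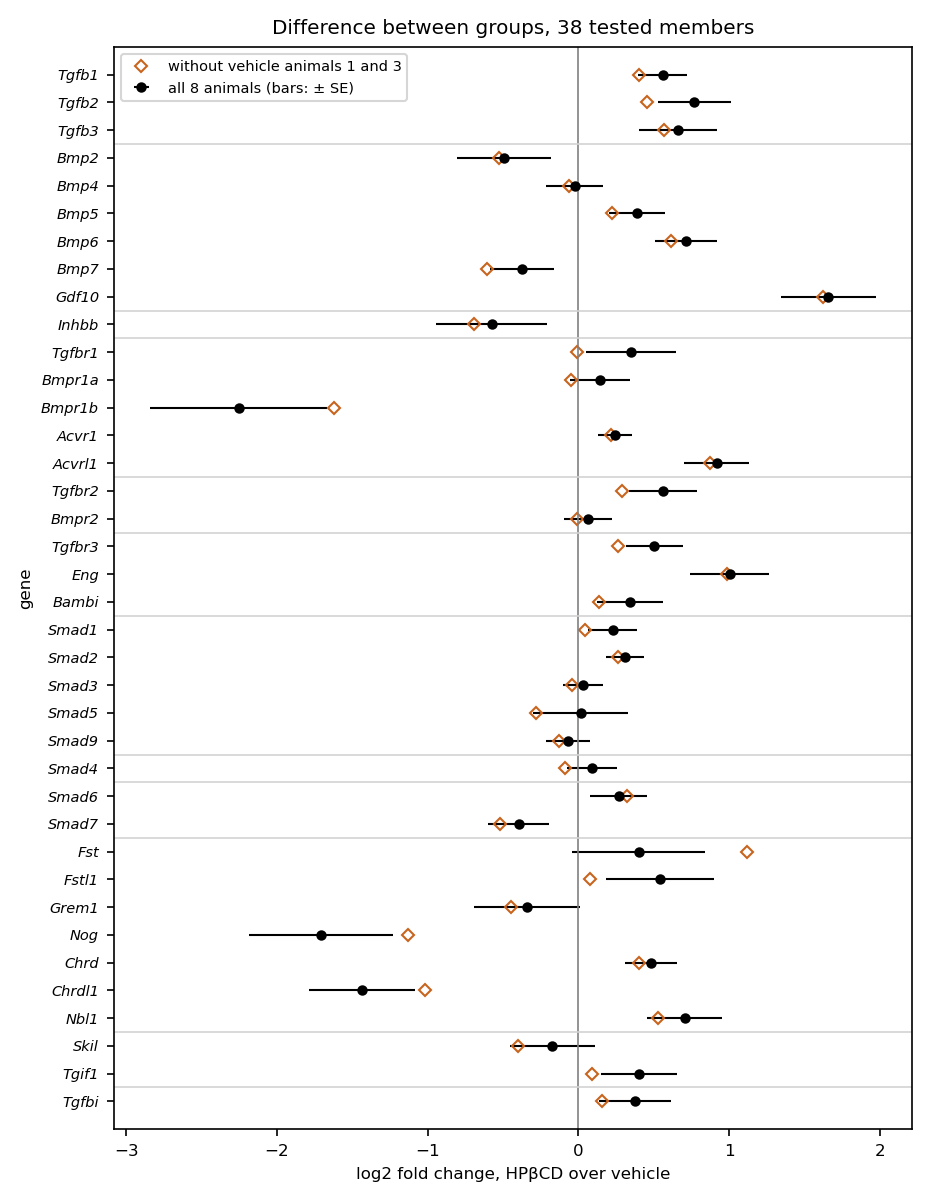
Log2 fold change (HPβCD over vehicle) of the 38 tested members by class, with all 8 animals (black, bars ± SE) and without vehicle animals 1 and 3 (open orange). *Gdf10* lies farthest to the right (1.66), *Bmpr1b*, *Nog* and *Chrdl1* farthest to the left (-2.25, -1.71 and -1.43), and the 8 Smads lie within -0.40 to 0.31.

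The Smads, which carry the signal from the receptors to the nucleus, showed small fold changes. All 8 were tested, and log2 fold changes ran from -0.40 to 0.31 with a median of 0.06 (6 animals -0.07). Groups did not overlap in 0 of them (backgrounds 8.77% higher and 8.03% lower). By edgeR 0 were called (backgrounds 1.17% and 0.774%) and 1 had an unadjusted p under 0.05 (backgrounds 11.8% and 16.0%). DESeq2 called 0 (backgrounds 5.92% and 11.1%) and limma-voom called 1 (backgrounds 10.9% and 11.1%). Over 8 genes, counts this small do not set the Smads apart from these backgrounds. *Smad5*, the receptor-regulated Smad with the highest level per length (27.2 CPM per kb), stood at 208, 227, 97.8 and 271 CPM in vehicle animals and at 208, 219.6, 132 and 252 CPM in HPβCD animals. The common partner *Smad4* was at 113, 141, 89.8 and 129 CPM in vehicle and at 123, 134, 108 and 138 CPM in HPβCD animals. Both genes overlapped fully between groups, with their lowest values in vehicle animal 3. The log2 fold changes of *Smad3*, *Smad4* and *Smad5* were 0.03, 0.09 and 0.01. They turned negative when libraries were scaled by totals alone, and their 6-animal values were -0.04, -0.09 and -0.28. *Smad2* had the highest value (6 animals 0.26; all animals 0.31, SE 0.13; edgeR adjusted p = 0.161). The inhibitory Smads went in opposite directions, *Smad6* at 0.27 (6 animals 0.32) and *Smad7* at -0.40 (6 animals -0.52), with SEs of 0.19 and 0.20, and *Smad7*, a feedback inhibitor that the pathway itself induces, was at 21.9, 22.9, 13.1 and 19.8 CPM in vehicle and at 13.3, 14.2, 17.7 and 13.8 CPM in HPβCD animals.

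Secreted antagonists did not share a direction. *Nog*, *Chrd* and *Chrdl1* each bind BMPs and keep them from receptors, and 2 of the 3 had lower levels in HPβCD infarcts. *Chrdl1* (chromosome X, 143285674 to 143394262, minus strand) stood at 38.2, 20.3, 45.6 and 31.0 CPM in vehicle animals and at 7.58, 8.52, 15.2 and 18.6 CPM in HPβCD animals. *Nog* (chromosome 11, 89300638 to 89302332, minus strand) stood at 2.15, 1.67, 5.02 and 1.99 CPM in vehicle animals and at 0.804, 0.429, 0.644 and 1.39 CPM in HPβCD animals. Neither pair of groups overlapped. *Nog* rested on 7 to 25 counts per HPβCD library and 37 to 83 per vehicle library. The log2 fold change of *Chrdl1* was -1.43 ± 0.35 (edgeR adjusted p = 0.0641; DESeq2 adjusted p = 0.00311), and -1.02 without vehicle animals 1 and 3. That of *Nog* was -1.71 ± 0.48 (edgeR adjusted p = 0.0785; DESeq2 adjusted p = 0.0129), and -1.13 without them. Without vehicle animal 2 alone, *Chrdl1* passed by edgeR (adjusted p = 0.0462).

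The 3 lower members, *Bmpr1b*, *Nog* and *Chrdl1*, had their 2 highest values in vehicle animals 1 and 3, the animals with the highest summed neuron (1002 and 6508 CPM) and astrocyte markers (7102 and 9339 CPM). The other vehicle animals had 2112 and 3540 CPM of astrocyte markers. *Slc1a2* alone gave 3755 and 7431 CPM of the astrocyte sums in vehicle animals 1 and 3. The astrocyte markers disagreed in vehicle animal 3. There *Gfap* (296 CPM) and *Aqp4* (255 CPM) were the lowest of the vehicle group, and *Aldoc* (752.5 CPM) and *Aldh1l1* (93.2 CPM) were the highest. Of 7 astrocyte markers tested, 0 were called by edgeR and none had separate groups. Of 7 neuron markers tested, 0 were called. The 6 oligodendrocyte markers summed to 1518 to 4876 CPM in vehicle animals and to 158, 164, 1930 and 926 CPM in HPβCD animals 1 to 4. In these 4 animals astrocyte markers summed to 646, 845, 2534 and 1380 CPM, and neuron markers to 10.3, 8.70, 86.3 and 21.7 CPM. HPβCD animals 1 and 2 were thus the lowest of their group in all 3 lists, and for *Bmpr1b* and *Chrdl1*. *Nog* differed, with its lowest values in HPβCD animals 2 and 3 (0.429 and 0.644 CPM). All 6 oligodendrocyte markers had fold changes below 0, 1 (*Mog*) had separate groups, 0 were called and none was at 0 in any library. The 5 oligodendrocyte precursor markers summed to 204 to 345 CPM in vehicle and 428 to 498 CPM in HPβCD animals. Most of these sums was *Pdgfra*, which also stands in the fibroblast list, at 156 to 300 and 411.5 to 461 CPM. Groups were separate and higher for *Pdgfra*, and separate and lower for *Olig1* and *Gpr17*. Log2 fold changes of *Olig1*, *Sox10* and *Gpr17* were -2.07, -1.60 and -2.96 (6 animals -1.45, -1.31 and -1.94). That of *Cspg4* was 0.32 (6 animals 0.35). The part of these cell types in the 3 differences was not tested.

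*Chrd* went the other way, at 4.75, 5.11, 5.27 and 6.40 CPM in vehicle and at 7.18, 7.96, 6.98 and 7.94 CPM in HPβCD animals. Its groups did not overlap, and its log2 fold change was 0.48 ± 0.17 (edgeR adjusted p = 0.113; 6 animals 0.40). *Nbl1*, which binds BMP and GDF ligands, was at 173, 139, 89.8 and 211 CPM in vehicle and at 225, 268, 284 and 224 CPM in HPβCD animals, again without overlap (log2 fold change 0.71 ± 0.25; edgeR adjusted p = 0.113; 6 animals 0.53). *Fstl1*, the most abundant member per length, was at 345, 643, 178 and 553 CPM in vehicle and at 645, 700.3, 499 and 657 CPM in HPβCD animals. Vehicle animals 2 and 4 lay within the HPβCD range, and its value went from 0.54 ± 0.36 to 0.08 without vehicle animals 1 and 3. *Fst*, which neutralizes activin, and the BMP antagonist *Grem1* had values of 0.40 and -0.34 (6 animals 1.12 and -0.45) with overlapping groups.

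**Figure D4:**
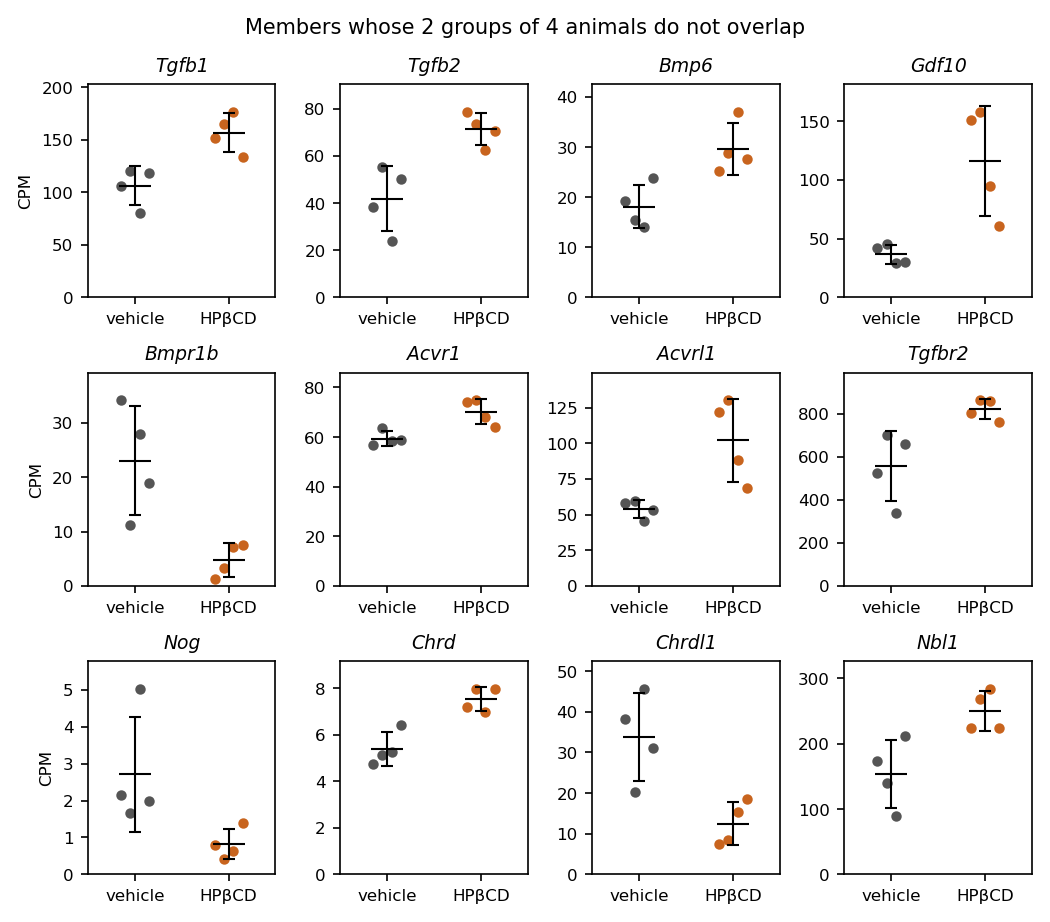
CPM in each animal for the 12 members whose groups did not overlap, with vehicle in grey and HPβCD in orange and with the mean and SD in black. *Tgfb1*, *Tgfb2*, *Bmp6*, *Gdf10*, *Acvr1*, *Acvrl1*, *Tgfbr2*, *Chrd* and *Nbl1* lie higher in HPβCD, and *Bmpr1b*, *Nog* and *Chrdl1* lie lower.

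Nuclear corepressors and the matrix target did not separate the groups. *Skil*, a corepressor of Smad complexes, was at 241, 258, 114 and 259 CPM in vehicle and at 199.5, 209, 132 and 234 CPM in HPβCD animals (log2 fold change -0.17 ± 0.28; 6 animals -0.40). *Tgif1*, another corepressor, had a value of 0.40 ± 0.25 (6 animals 0.09). *Tgfbi*, a matrix protein induced by TGF-β, was at 185, 350.0, 215 and 223 CPM in vehicle and at 334, 353, 355 and 222 CPM in HPβCD animals (log2 fold change 0.38 ± 0.24; edgeR adjusted p = 0.340; 6 animals 0.16). Vehicle animal 2 was the highest of its group, and HPβCD animal 4 lay below the other 3 of its group. Of these 2 animals, HPβCD animal 4 alone met the outlier criterion described below.

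Other genes of the pathway were taken from a wider list of 77 ligands, receptors, latent complex proteins, antagonists, intracellular regulators and targets, of which 51 were tested. By edgeR 4 rose and 0 fell (backgrounds 1.17% and 0.774%), and 15 were higher and 3 lower at an unadjusted p of 0.05 (backgrounds 11.8% and 16.0%). DESeq2 called 9 higher and 3 lower (backgrounds 5.92% and 11.1% of 17041 genes), and limma-voom called 14 and 2 (backgrounds 10.9% and 11.1%). The lower DESeq2 calls included *Acvr1c*, a receptor that edgeR did not test. It had 838 and 622 counts in vehicle animals 1 and 3 and at most 7 in any other library. Their median log2 fold change was 0.22, against -0.05 over all tested genes, and 0.13 without vehicle animals 1 and 3. Groups did not overlap in 11 higher and 2 lower genes (backgrounds 8.77% and 8.03%).

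The 4 genes that rose were *Htra3*, *Gdf15*, *Lrrc32* and *Col1a1*. *Htra3*, a secreted serine protease that inhibits TGF-β family ligands (chromosome 5, 35652023 to 35679782, minus strand), was at 47.9, 42.6, 34.6 and 55.7 CPM in vehicle and at 120.0, 134, 133 and 97.6 CPM in HPβCD animals. Its log2 fold change was 1.42 ± 0.18 (edgeR adjusted p = 0.0339), and 1.32 without vehicle animals 1 and 3. *Gdf15*, a ligand induced by cell stress, was at 2.88, 5.11, 3.75 and 4.68 CPM in vehicle and at 9.48, 11.2, 10.1 and 8.77 CPM in HPβCD animals (log2 fold change 1.26 ± 0.22; edgeR adjusted p = 0.0472; 6 animals 1.03). *Lrrc32*, which holds latent TGF-β on the cell surface, was at 18.8, 31.8, 18.2 and 25.2 CPM in vehicle and at 54.8, 45.6, 49.0 and 42.1 CPM in HPβCD animals (log2 fold change 1.03 ± 0.20; edgeR adjusted p = 0.0483; 6 animals 0.76). *Col1a1*, a collagen chain induced by TGF-β that also stands in the fibroblast list, was at 336, 400.2, 166 and 353 CPM in vehicle and at 1042, 1177, 915 and 709 CPM in HPβCD animals (log2 fold change 1.61 ± 0.29; edgeR adjusted p = 0.0483; 6 animals 1.36). In each of the 4 genes every HPβCD animal was above every vehicle animal. All 4 calls were lost without vehicle animal 1 or 4 or without HPβCD animal 1, 2 or 3, where the edgeR adjusted p reached at most 0.175, and *Lrrc32* also lost its call without HPβCD animal 4 and without vehicle animals 1 and 3 together (adjusted p = 0.0629).

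Genes of the latent TGF-β complex and its activation were then described. Of the 11 tested genes of this class, 9 had a log2 fold change above 0, against 45.9% of all tested genes, with a median of 0.81 (6 animals 0.47). The groups were separate and higher in 4 genes, against 8.77% of all tested genes, namely *Lrrc32*, *Ltbp3*, *Emilin1* and *Fbn1*. *Fbn1*, the microfibril protein that anchors latent complexes in matrix, was at 62.0, 99.5, 58.5 and 91.5 CPM in vehicle and at 214, 237, 209 and 111 CPM in HPβCD animals. *Emilin1*, a matrix protein that limits the processing of TGF-β precursors, was at 48.6, 72.5, 46.9 and 62.3 CPM in vehicle and at 140.5, 151, 107 and 83.7 CPM in HPβCD animals. In both genes HPβCD animal 4 was the lowest of its group and still above the vehicle animals. Their log2 fold changes were 1.31 ± 0.27 and 1.07 ± 0.23, each with an edgeR adjusted p of 0.0516. The 6-animal values were 1.03 and 0.85, and 20.1% of the exon length of *Fbn1* overlaps a gene on the other strand. *Ltbp1* (-0.20, 6 animals -0.45) and *Itgb8* were the genes of the class with values below 0. *Itgb8*, an integrin chain that activates latent TGF-β and is known in brain from astrocytes, was at 299, 204, 154 and 289 CPM in vehicle and at 92.7, 115, 110.5 and 159 CPM in HPβCD animals (log2 fold change -0.99 ± 0.25; edgeR adjusted p = 0.0682). HPβCD animal 4 lay within the vehicle range, and the value was -1.03 without vehicle animals 1 and 3. *Fbn1*, *Emilin1*, *Ltbp1* and *Itgb8* were singled out after their values were seen.

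**Figure D5:**
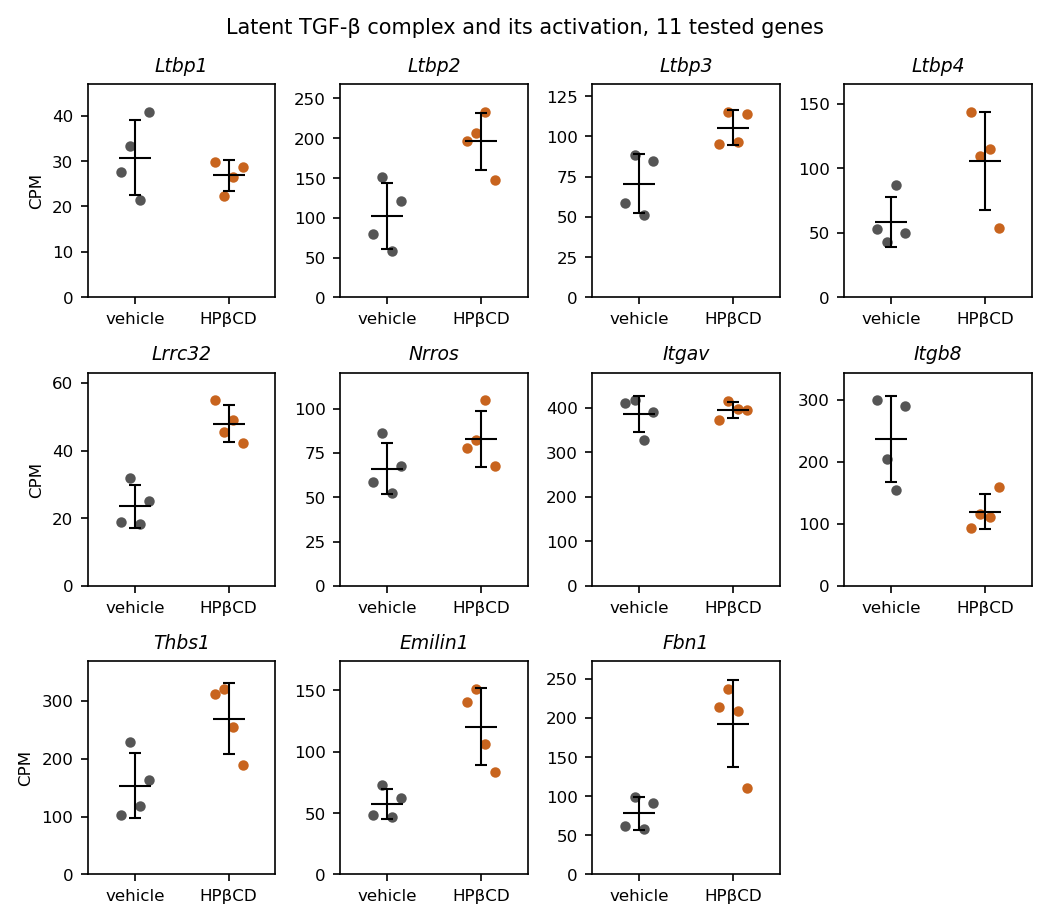
CPM in each animal for the 11 tested genes of the latent TGF-β complex and its activation, with vehicle in grey and HPβCD in orange and the mean and SD in black. *Lrrc32*, *Ltbp3*, *Emilin1* and *Fbn1* lie higher in every HPβCD animal, *Itgav* and *Ltbp1* overlap, and *Itgb8* is lower in HPβCD with 1 animal inside the vehicle range.

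Markers of fibroblasts, macrophages and mural cells were mostly higher in the same animals. Over all tested genes, 45.9% had fold changes above 0, 8.77% were separate and higher, and 1.17% were called higher. All 6 fibroblast markers had fold changes above 0, 4 had separate groups and 2 were called (*Col1a1* and *Col1a2*). *Lum* went from 0.41 to -0.06 without vehicle animals 1 and 3, and *Col3a1* from 1.01 to 0.50. All 6 mural cell markers were above 0, and 1 (*Pdgfrb*) had separate groups and was called. Of 6 macrophage markers, 4 had fold changes above 0, 2 had separate groups and 1 (*Gpnmb*) was called. The part of these cells in the levels of the latent complex genes was not tested.

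In the remaining classes no gene passed, and the gene with the highest mean CPM in each is given. *Rgmb*, a BMP co-receptor, was at 34.8, 43.1, 32.0 and 46.7 CPM in vehicle and at 49.99, 50.1, 50.3 and 56.2 CPM in HPβCD animals, without overlap (log2 fold change 0.40 ± 0.15; edgeR adjusted p = 0.132; 6 animals 0.22). Per kilobase, the activin receptor *Acvr1b* was the highest of that class, at 9.21 against 5.92 CPM per kb for *Rgmb*, and its groups overlapped (log2 fold change -0.45 ± 0.24; 6 animals -0.02). *Pmepa1*, a membrane protein that restrains Smad signalling, was at 254, 272, 152 and 342 CPM in vehicle and at 477, 413, 394 and 357 CPM in HPβCD animals, without overlap (log2 fold change 0.69 ± 0.24; edgeR adjusted p = 0.110; 6 animals 0.43). Among transcriptional targets, chosen after its values were seen, *Id4* stood out against *Id1*, *Id2* and *Id3*, BMP-induced inhibitors of helix-loop-helix factors. *Id4* was at 60.8, 27.8, 28.8 and 38.0 CPM in vehicle and at 5.0, 5.58, 15.3 and 15.1 CPM in HPβCD animals (log2 fold change -1.92 ± 0.45; edgeR adjusted p = 0.0624), and -1.66 without vehicle animals 1 and 3. *Id1*, *Id2* and *Id3* had values of 0.40, -0.02 and 0.18 (6 animals 0.25, -0.13 and 0.07) with overlapping groups. The TGF-β target *Ccn2* had a value of -0.22 (6 animals -0.61), also with overlap. These targets too were chosen outside the naming rule, and 23.2% of the exon length of *Ccn2* overlaps a gene on the opposite strand.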

How the data were processed

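RNA was extracted from 8 infarcts. Per the labels and the methods of the study, the authors made stranded libraries from polyadenylated RNA, converted runs with bcl2fastq 2.19, trimmed reads with Trimmomatic 0.32, aligned them to GRCm38 with STAR 2.5.2b and used htseq-count for the gene counts. The strand setting, counter version and annotation release were not given in the sources used here. The authors deposited raw read counts per gene, 1 table per animal, without normalization. Lines for reads assigned to no gene (26.6% to 36.6% of counted reads) were left out.

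Groups came from the labels, which give no batch. The labels do not say that animal numbers pair the groups, and correlations of deviations between same-numbered animals were -0.26, 0.24, 0.33 and 0.10. The animals were treated as unpaired. No libraries agreed within sampling noise (chi-square per degree of freedom at least 20.3). P-values describe the spread between these animals.

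Symbols, exon lengths and coordinates came from GENCODE M21 on GRCm38. CPM were counts over the library total times the TMM factor, and per-kilobase values used the union of exons. Differences were tested with edgeR 4.0.16 (R 4.3.3, robust quasi-likelihood test, TMM, filterByExpr by group, no covariate) and adjusted by Benjamini-Hochberg over 14736 genes, threshold 0.05. SEs are the log2 fold change divided by the root of the F statistic. DESeq2 1.42.0 (the tool of the study) and limma 3.58.1 (voom with quality weights), other scalings and filters, a replicate block and left-out animals were alternatives. The procedure was tested on simulated data. Groups did not overlap where every value of one lay above every value of the other. Promoter sequences are from RefSeq.

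Members and lists were chosen with earlier results of these data known. Values in every animal are given for members that passed the threshold, whose groups did not overlap, or that had the highest level per kilobase in their class. Of the other pathway genes, those that passed are named, and otherwise the gene with the highest mean CPM in a class. Further genes are named as chosen after their values were seen.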

Additional observations from a re-analysis of the deposited data

Results flagged for a closer look

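Each group of 4 animals was examined for 1 animal lying far away from the rest on the log2 CPM scale, by Dixon's criterion at 95%. Of 98 groups searched over the members and the other pathway genes named, 6 held such an animal, and chance gives about 1 in 20, or 4.9.

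HPβCD animal 3 was low for *Bmpr1a*, at a log2 CPM of 8.23 (299.7 CPM against 366 to 369.9 CPM in the other 3). HPβCD animal 4 was low for *Tgfbi*, at 7.79 (222 CPM against 334 to 355 CPM), low for *Fbn1*, at 6.80 (111 CPM against 209 to 237 CPM), and high for *Rgmb*, at 5.82 (56.2 CPM against 49.99 to 50.3 CPM). Vehicle animal 3 was low for *Skil*, at 6.84 (114 CPM against 241 to 259 CPM). Vehicle animal 1 was low for *Grem1*, at -0.36 (0.679 CPM against 1.02 to 1.09 CPM), a gene with 9 to 38 counts per library.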

How the results depend on the processing

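The test decided how many genes passed. Over all genes, 287 were called by edgeR, 2899 by DESeq2, 3253 by limma-voom, 98 without the robust option, 11 with library totals alone and 0 to 629 when single animals were left out, and in the fits with 0 calls between 2922 and 4216 genes had an unadjusted p under 0.05. Members called higher numbered 1 by edgeR, 6 by DESeq2 and 7 by limma-voom, 0 with library totals alone, without the robust option or without vehicle animals 1 and 3 (7, 12 and 8 at an unadjusted p of 0.05), and 0 to 3 with single animals left out (7 to 15 at an unadjusted p of 0.05). Members called lower numbered 0 by edgeR, 3 by DESeq2, 6 by limma-voom and 0 to 1 with single animals left out. Other pathway genes called numbered 4 by edgeR, 12 by DESeq2, 16 by limma-voom, 2 without the robust option, 0 with library totals alone (16 at an unadjusted p of 0.05) and 0 to 8 with single animals left out (14 to 19). The members' median of 0.29 was 0.086 without vehicle animals 1 and 3. Members with separate groups numbered 12, and 8 to 16 under the alternatives. The causes were not tested.

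With the replicate number as a block, 9 genes in all, 0 members and 0 other pathway genes were called by edgeR (3478, 15 and 17 at an unadjusted p of 0.05). The labels do not say whether the numbers pair the animals, so these counts do not show whether the effect is weaker.

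Signs turned mostly for near-zero values, and also for *Bmpr1a* (0.14 with all animals) and *Tgfbr1* (0.35 with all animals). *Bmp4* was 0.0145 by limma-voom, 0.0061 without the filter, and -0.10 to 0.12 with single animals left out. *Bmpr1a* was -0.048 without vehicle animals 1 and 3 and -0.0114 to 0.26 with single animals left out. *Tgfbr1* was -0.011 without vehicle animals 1 and 3. *Bmpr2* was -0.0215 with library totals alone and -0.0094 without vehicle animals 1 and 3. *Smad3* was -0.0536 and -0.0441 in those fits, and -0.0346 to 0.10 with single animals left out. *Smad4* was -0.0027 and -0.0895, and -0.021 to 0.19. *Smad5* was -0.0849 and -0.28, -0.22 by limma-voom, and -0.21 to 0.21. *Smad9* was -0.13 to 0.0259 with single animals left out. Library totals alone moved the median of all genes by -0.08.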
